A study of Mus musculus and Rattus norvegicus with 51 samples.

Results

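Rat HSC-T6 cells, which descend from hepatic stellate cells immortalised with a viral T antigen, were exposed for 6 h to the protein HMGB1 in the form the labels write as [O], and were compared with cells given bovine serum albumin (BSA), the protein control. The comparison holds 6 of the 51 libraries of the series, 3 with [O] HMGB1 and 3 with BSA, and all 17327 genes of the table, of which 10140 had enough reads to be tested. All cells were labelled wild type and the same line, so that the agent was the labelled difference. The same table holds 3 libraries with [H] HMGB1 and 3 with [SO3] HMGB1 at the same 6 h. They shared 1 fit with the 6 libraries compared, and so entered its filter, scaling and estimate of the spread. They also served to ask where [O] HMGB1 differed from another form of the protein. The sources used here give no dose or origin of the proteins and do not say whether numbered libraries came from separate cultures. The p-values therefore measure the spread between these libraries, which may be technical, and describe 1 cell line.

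HMGB1 is a chromatin protein that injured or activated cells release as an alarm signal. Its activity outside the cell depends on the oxidation of its cysteines: the disulfide form is known to signal through TLR4 with its partner MD-2, the fully reduced form to bind CXCL12 and attract cells through CXCR4, and terminally oxidised HMGB1 to lack cytokine activity. The labels do not spell out the chemistry of [O]. TLR4 acts through the adaptor MyD88 and IRAK kinases to free NF-kB from its inhibitors, and NF-kB then induces chemokines, cytokines, adhesion molecules and its own inhibitors. Stellate cells are the liver's main source of scar collagen and also attract leukocytes.

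The [O] libraries held 16121202 to 16883214 counts on genes and the BSA libraries 11752661 to 14557156. The 14 markers of stellate and mesenchymal cells were all tested, and their summed level was 74900 to 77800 CPM with [O] HMGB1 and 75400 to 79900 with BSA. Lrat, the enzyme that stores retinol in quiescent stellate cells, had 0 counts in all 6 libraries. The 12 macrophage markers summed to 1.35 to 2.06 CPM with [O] HMGB1 and 1.28 to 1.97 with BSA, with 7 of them at 0, among them Ptprc, which marks all leukocytes. The 10 hepatocyte markers stayed at or under 0.71 CPM in both groups, and the 7 lymphocyte markers measured were at 0. The 8 endothelial markers summed to 11.6 to 13.5 CPM with [O] HMGB1 and 15.3 to 18 CPM with BSA. Kdr and Lyve1 were at 0, and Tek, an angiopoietin receptor, was lower (log2 fold change -0.79). Vwf averaged 4.81 CPM with [O] HMGB1 and 4.36 CPM with BSA and passed no test (adjusted p = 0.426). The 5 cholangiocyte markers measured summed to 28 to 30.7 CPM with [O] HMGB1 and 25.2 to 32.7 CPM with BSA, with Krt19 and Epcam at 0. Most of that sum was Sox9, which averaged 26.0 CPM with [O] HMGB1 and 25.3 CPM with BSA. Spp1 averaged 3.18 and 2.65 CPM in the same order, and neither gene was called. The part of these cell types in the results was not tested. CPM, a gene's counts relative to its library's total, is scaled here for library composition but not for gene length, so levels compare libraries and not genes.

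With [O] HMGB1, 4453 of the 10140 genes tested passed the threshold, which was an adjusted p under 0.05 in edgeR's quasi-likelihood test (43.9%). Of these, 2408 were higher (23.7% of the genes tested) and 2045 lower (20.2%). Most of the calls were small: 3400 of the 4453 (76.4%) were under 1.5-fold. At 2-fold or more, 347 genes were higher (3.42%) and 150 lower (1.48%), so that large changes were mostly increases. The 3 libraries of one group lay wholly apart from the 3 of the other in many genes, 2730 of them higher with [O] HMGB1 (26.9%) and 2420 lower (23.9%). Genes named below as the largest rises and falls were chosen among such genes, so their separation was fixed by the choice. Most list members named below were picked for called changes, so a lack of overlap in them is no added support. The median log2 fold change over all genes tested was -0.01. Bulk RNA does not tell a change in every cell from a change in some of them. The lists below were read against these shares: among lists with at least 8 tested members, chemokines, NF-kB regulators and acute phase genes held the highest shares of raised members, and DNA replication the highest share of lowered ones.

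**Figure D1:**
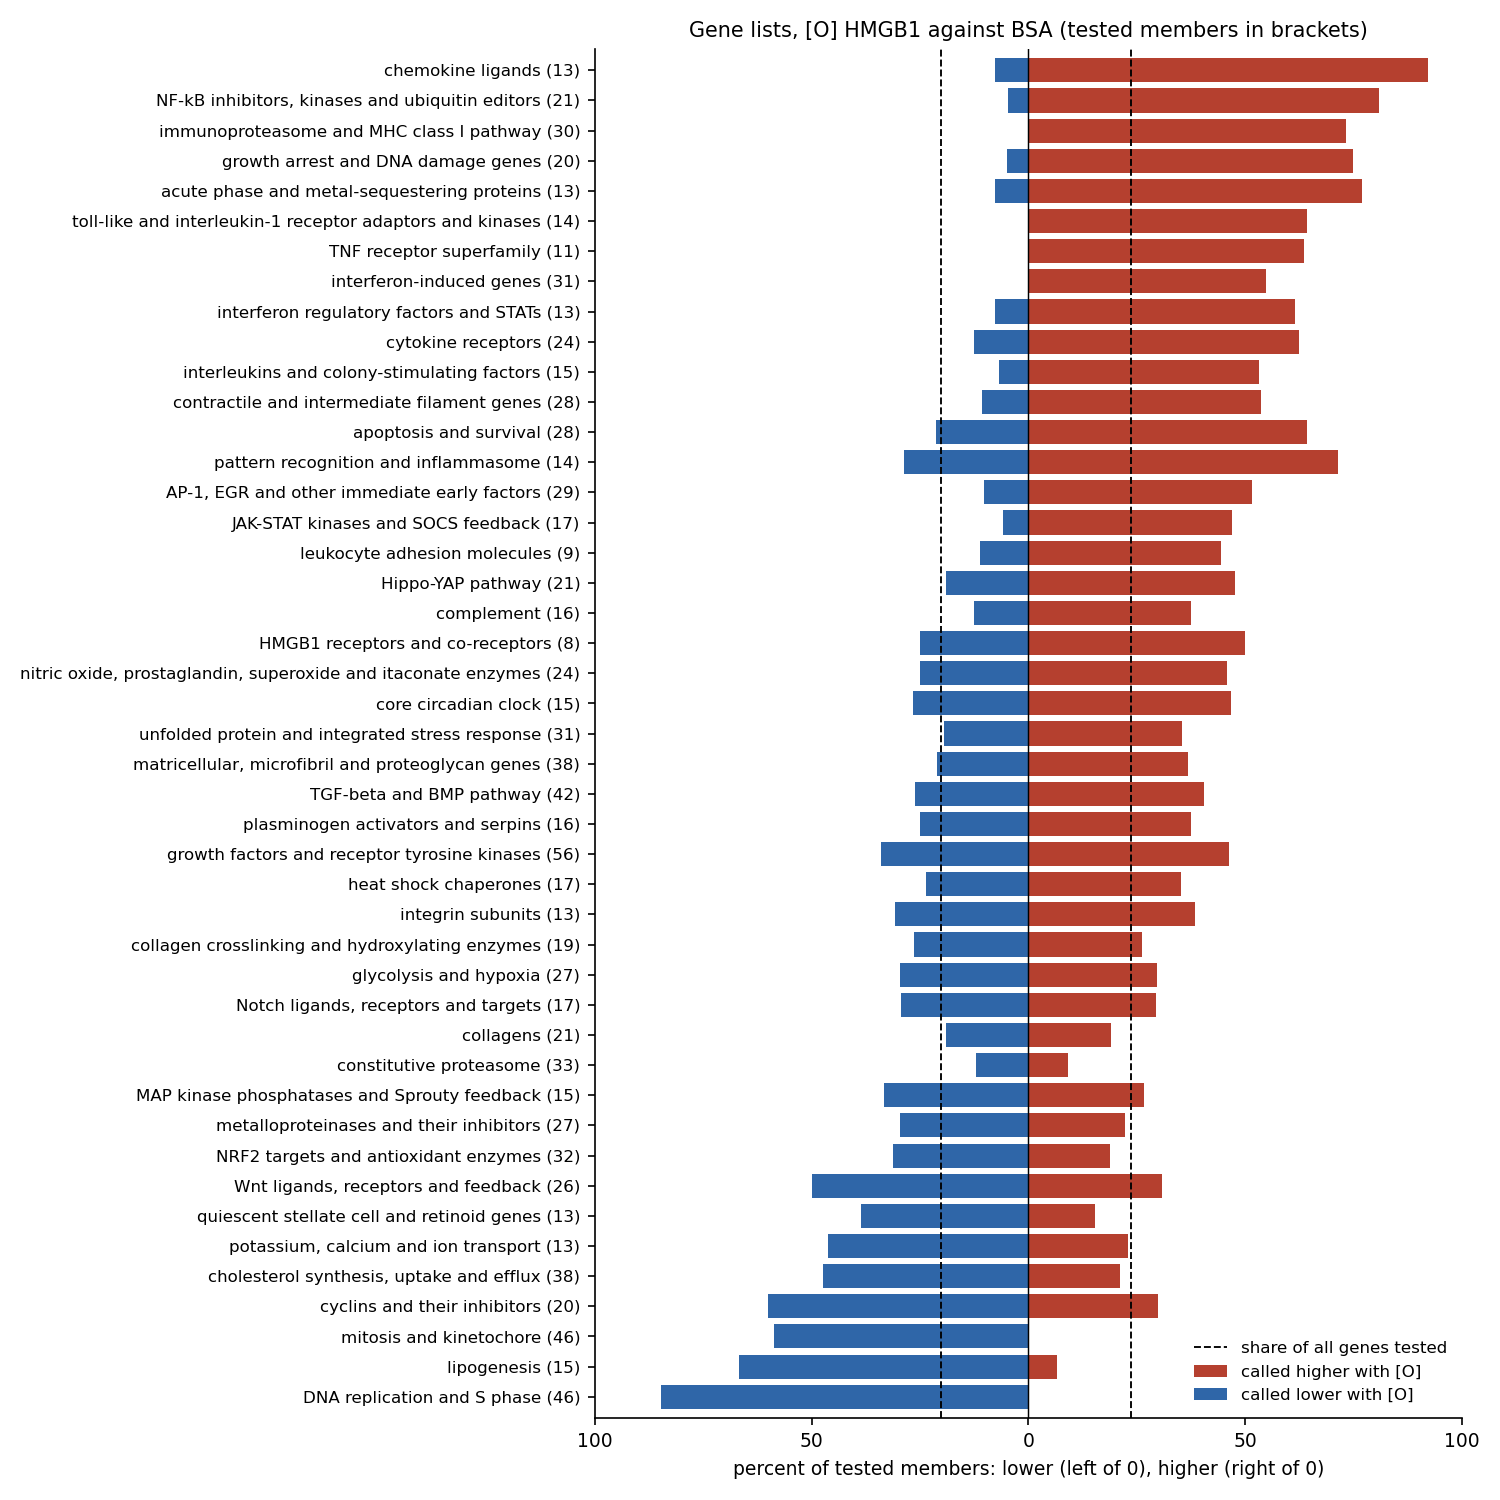
Percent of the tested members of each gene list called higher (red, right of 0) or lower (blue, left of 0) with [O] HMGB1 than with BSA, for lists with at least 8 tested members. Dashed lines mark the shares over all genes tested, 23.7% higher and 20.2% lower. Chemokine ligands stand at the top with 12 of 13 higher, and DNA replication at the bottom with 39 of 46 lower.

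The list of receptors and co-receptors through which HMGB1 is known to act also holds secreted partners, such as Lbp and Cxcl12. Of its members 8 of 14 measured passed the filter on low counts, and 4 rose while 2 fell. Tlr2, a receptor for bacterial lipoproteins and for HMGB1, had 208, 225 and 202 counts in the [O] libraries and 1, 2 and 0 counts in the BSA libraries. The libraries separated fully, and the ratio of summed counts was 180.0 (95% counting interval 61.3 to 875, adjusted p = 2.98e-16). Lbp, the serum protein that passes lipopolysaccharide to CD14, stood at 45.2, 41.7 and 43.5 CPM with [O] HMGB1 and 7.49, 7.38 and 6.24 CPM with BSA (log2 fold change 2.62 ± 0.08 SE). Cxcl12, which forms a complex with HMGB1, stood at 864, 838 and 851 CPM with [O] HMGB1 and 202, 208 and 221 CPM with BSA (log2 fold change 2.02 ± 0.04 SE). Both rose without overlap, as did the hyaluronan receptor Cd44 by a smaller amount (log2 fold change 0.60 ± 0.03 SE). The parts of the TLR4 complex went the other way or passed no test. Tlr4 averaged 54.1 ± 0.589 CPM with [O] HMGB1 and 67.2 ± 2.42 CPM with BSA (SD, n = 3 each; log2 fold change -0.31 ± 0.06 SE), and its co-receptor Cd14 averaged 27.5 ± 1.46 and 40.8 ± 0.965 CPM in the same order (log2 fold change -0.57 ± 0.07 SE). Ly96, which encodes MD-2, had a log2 fold change of -0.23 (adjusted p = 0.0921), and Ager, the receptor RAGE, one of -0.02 (adjusted p = 0.94). Cxcr4, the receptor of CXCL12, had 0 counts in all 6 libraries. Hmgb1 itself averaged 36.9 ± 2.23 CPM with [O] HMGB1 and 40.8 ± 4.52 CPM with BSA, a difference that missed the threshold (log2 fold change -0.14, adjusted p = 0.0986) but passed it without BSA replicate 1 (-0.22, adjusted p = 0.0109).

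Among sensors of microbial and damage signals, a list that also holds Tlr2 and Tlr4, 10 of 14 tested were higher and 4 lower. Nlrp3, the core of an inflammasome, stood at 53.5, 53.5 and 52.6 CPM with [O] HMGB1 and 22.8, 19.9 and 23.4 CPM with BSA (log2 fold change 1.27 ± 0.07 SE). Casp1, its effector protease, was at 1.65, 2.86 and 2.77 CPM with [O] HMGB1 and 0.953, 0.497 and 0.769 CPM with BSA (log2 fold change 1.69 ± 0.33 SE). Neither gene's groups overlapped, yet Pycard, the adaptor that joins NLRP3 to caspase-1, was lower, at 2.45, 3.50 and 4.05 CPM with [O] HMGB1 and 7.28, 6.03 and 5.47 CPM with BSA (log2 fold change -0.93 ± 0.17 SE). Tmem173, which encodes the DNA-sensing adaptor STING, also fell (log2 fold change -0.71), as did the flagellin receptor Tlr5 (log2 fold change -1.34). Il1b, a product that this inflammasome matures, had 0 counts in every [O] and BSA library.

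Downstream of the receptors, 9 of 14 tested adaptors and kinases rose and 0 fell, where 23.7% and 20.2% of all genes did, with a median log2 fold change of 0.22. Zc3h12a, a ribonuclease that degrades cytokine transcripts, stood at 1107, 1026 and 1064 CPM with [O] HMGB1 and 45.1, 40.04 and 36.1 CPM with BSA (log2 fold change 4.71 ± 0.06 SE). Irak3, a member of the IRAK family that restrains toll-like receptor signalling, stood at 284, 289 and 289 CPM with [O] HMGB1 and 52.3, 50.3 and 47.7 CPM with BSA (log2 fold change 2.52 ± 0.05 SE). Neither of these restraining genes overlapped between groups, as for 26.9% of all genes tested in the higher direction. Map3k8, a kinase that passes the signal on to ERK, rose by 3.05 on the log2 scale and the kinase Irak2 by 1.36, whereas the shared adaptor Myd88 rose by only 0.46. The upstream kinase gene Map3k7 averaged 6.87 ± 0.222 and 7.97 ± 1.11 CPM in [O] and BSA libraries, and passed no test (adjusted p = 0.186).

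All 3 NF-kB subunits tested were higher with [O] HMGB1. Nfkb1 stood at 399, 398 and 400.2 CPM with [O] HMGB1 and 64.99, 59.1 and 70.1 CPM with BSA (log2 fold change 2.63 ± 0.05 SE). Nfkb2 rose by 1.74 on the log2 scale and Rela, the main activating subunit, by 0.82. The inhibitors, kinases and ubiquitin editors around NF-kB were higher in 17 of 21 cases and lower in 1, Otud7b (log2 fold change -0.18). Nfkbia, the inhibitor that NF-kB induces to end its own activity, stood at 271, 276 and 279 CPM with [O] HMGB1 and 26.5, 25.8 and 24.4 CPM with BSA (log2 fold change 3.43 ± 0.05 SE). Bcl3, a nuclear member of the inhibitor family, stood at 53.2, 47.8 and 45.7 CPM with [O] HMGB1 and 1.23, 1.14 and 1.71 CPM with BSA (log2 fold change 5.19 ± 0.12 SE). Its relative Nfkbiz was at 236, 243 and 238 CPM with [O] HMGB1 and 8.37, 10.7 and 11.7 CPM with BSA (log2 fold change 4.56 ± 0.07 SE). The groups were separate for all of these genes, by an order of magnitude for Nfkbia, Bcl3 and Nfkbiz. Birc3, a ubiquitin ligase of the TNF receptor complex, rose by 3.56, Nfkbie by 2.55 and Tnip1, a partner of the ubiquitin editor A20, by 1.95 on the log2 scale. The kinase subunits Ikbkb and Chuk changed less (log2 fold changes 0.71 and 0.36).

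**Figure D2:**
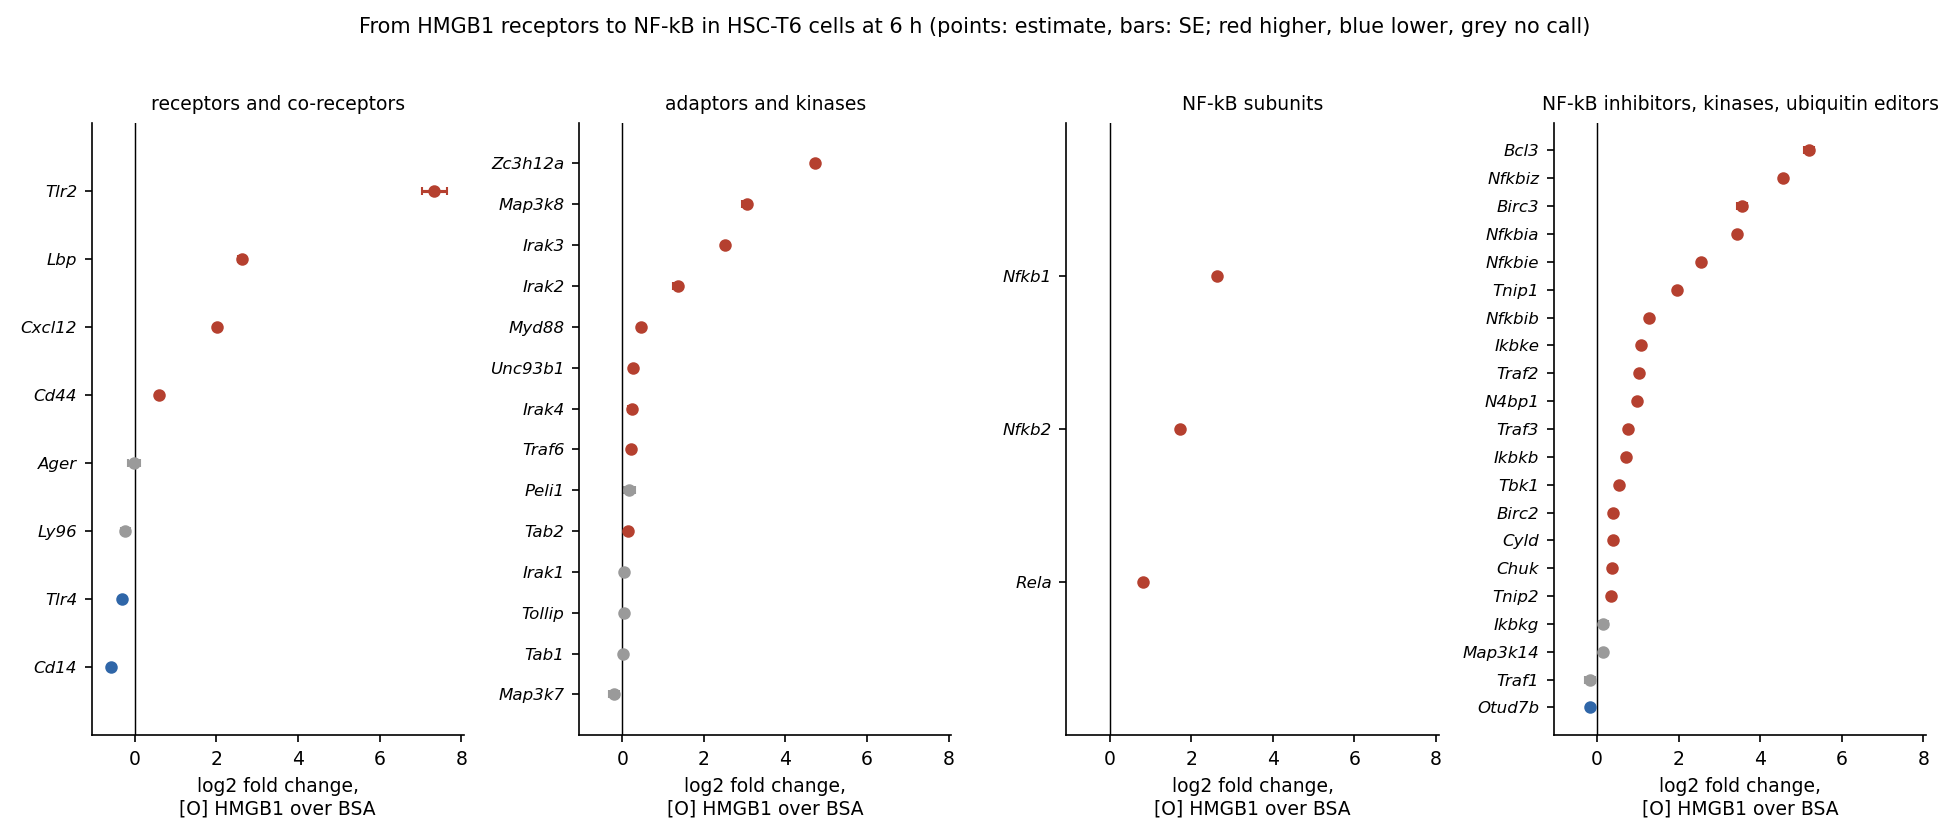
Log2 fold change of [O] HMGB1 over BSA, with its standard error, for every tested HMGB1 receptor or partner, adaptor, NF-kB subunit and NF-kB regulator. Red points were called higher, blue lower and grey neither. Tlr2 lies furthest to the right of the receptors while Tlr4 and Cd14 lie at -0.31 and -0.57. Bcl3, Nfkbiz and Nfkbia, members of the inhibitor family, have larger values than the subunits Nfkb1, Nfkb2 and Rela.

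Chemokine ligands moved almost all one way. Of 33 measured, 13 passed the filter, 12 of these were higher and each by more than 2-fold, and Ccl27 was lower (log2 fold change -0.88, a call lost under 5 of 11 other settings). Cxcl1, a neutrophil attractant, stood at 661, 702 and 717 CPM with [O] HMGB1 and 5.85, 6.11 and 8.21 CPM with BSA (log2 fold change 6.71 ± 0.08 SE). Cxcl6, as the table names another neutrophil attractant, stood at 123, 127 and 129 CPM with [O] HMGB1 and 0.340, 0.355 and 0.256 CPM with BSA (log2 fold change 8.58 ± 0.11 SE). Cxcl3 showed the same separation, with 313, 313 and 320.0 CPM against 1.97, 2.34 and 2.48 CPM (log2 fold change 7.13 ± 0.09 SE). The 3 genes share the receptor CXCR2 on neutrophils with Cxcl2, whose counts were 35, 48 and 54 with [O] HMGB1 and 0, 0 and 1 with BSA. Close sequence similarity within this family leaves the split of reads among its members uncertain. For Ccl20, which attracts lymphocytes and dendritic cells through CCR6, counts were 423, 407 and 425 with [O] HMGB1 and 2, 0 and 0 with BSA, a ratio of 534 with a 95% counting interval of 147 to 4410.0.

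The monocyte attractants followed. Ccl2 stood at 922, 951 and 987 CPM with [O] HMGB1 and 46.9, 50.3 and 51.9 CPM with BSA (log2 fold change 4.26 ± 0.08 SE), and Ccl7 at 248, 268 and 274 CPM and 5.99, 9.09 and 6.33 CPM (log2 fold change 5.20 ± 0.14 SE). Cx3cl1, a chemokine tethered to the cell surface, stood at 303, 296 and 287 CPM with [O] HMGB1 and 1.91, 1.21 and 1.11 CPM with BSA (log2 fold change 7.68 ± 0.10 SE). For these 3 genes no BSA library came near any [O] library. Cxcl10, a T cell attractant, stood at 152, 170.0 and 138 CPM with [O] HMGB1 and 10.1, 7.31 and 32.1 CPM with BSA, the highest BSA value being that of replicate 3 (log2 fold change 3.28 ± 0.51 SE). Its relative Cxcl11 rose by 3.94, and Cxcl16, another membrane-bound chemokine, by 1.93 on the log2 scale. Other chemokines were not tested: Ccl5 had 3, 3 and 1 counts with [O] HMGB1 and 0, 0 and 2 with BSA, and Ccl3 had 1, 0 and 0 counts with [O] HMGB1 and 0 in every BSA library. Of chemokine receptors 3 passed the filter, and only the scavenging receptor Ackr3 of these was called (log2 fold change 0.52).

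**Figure D3:**
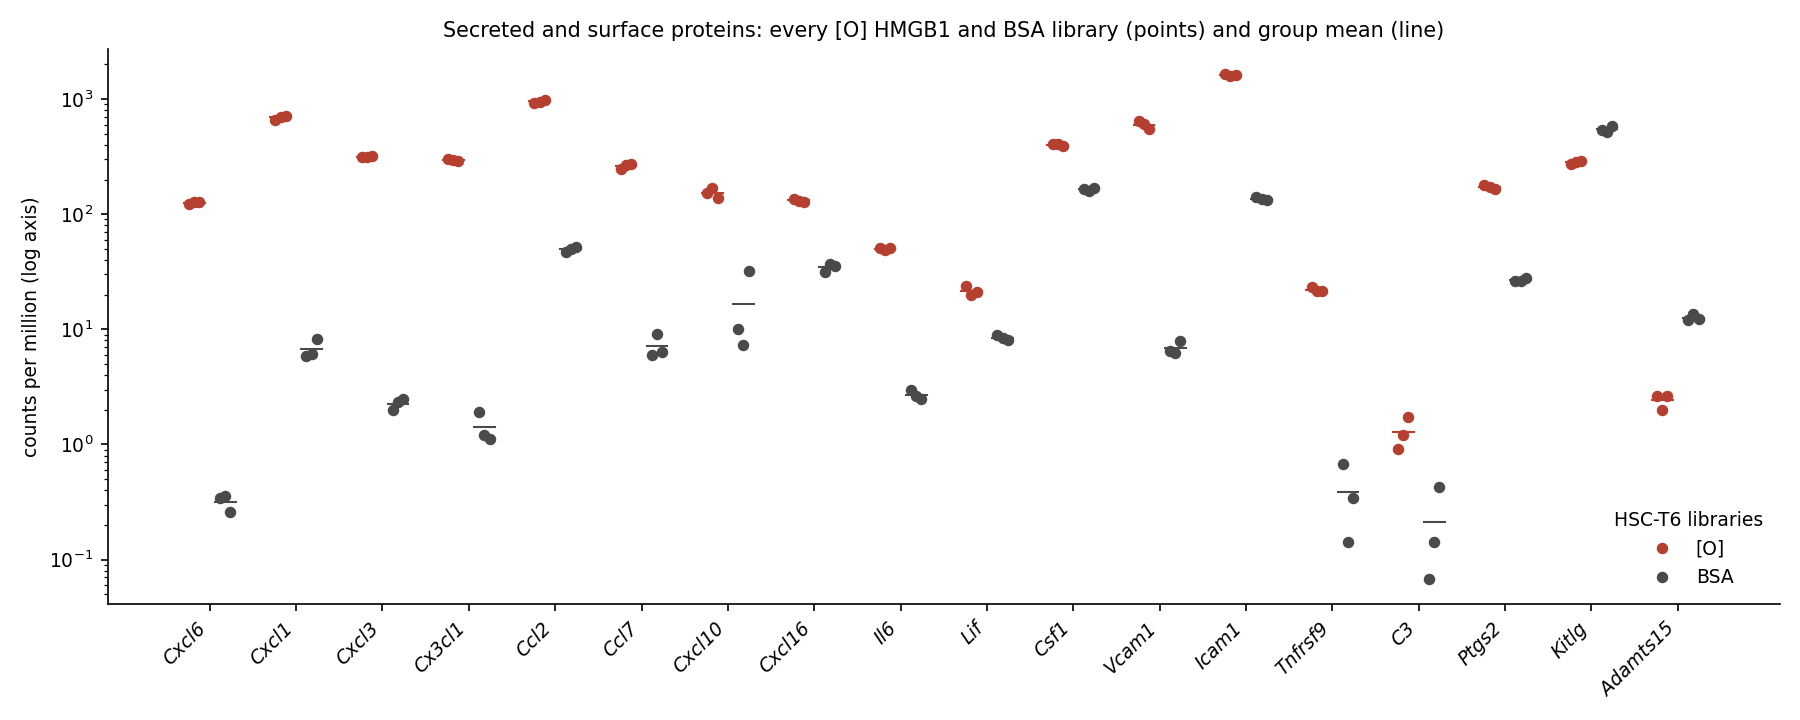
CPM on a log axis for 18 genes of secreted or surface proteins, with [O] libraries in red left of BSA libraries in grey, points for libraries and lines for group means. For 16 of the genes every [O] library lies above every BSA library, and for Kitlg and Adamts15 below. The 3 BSA points of Cxcl10 are 10.1, 7.31 and 32.1 CPM, and those of the other chemokines lie closer together.

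Among cytokine genes, growth factors of myeloid cells and Il6 rose. Of 28 interleukins and colony-stimulating factors measured, 15 passed the filter, 8 were higher and Il33 was lower (log2 fold change -1.15 ± 0.14 SE). Il6, the main inducer of the acute phase response, stood at 50.8, 48.6 and 51.01 CPM with [O] HMGB1 and 2.99, 2.63 and 2.48 CPM with BSA (log2 fold change 4.20 ± 0.10 SE). Csf3, the granulocyte growth factor, had 53, 40 and 42 counts with [O] HMGB1 and 1, 0 and 0 with BSA, and Csf2, which acts on granulocytes and macrophages, had 17, 15 and 13 counts with [O] HMGB1 and 1, 0 and 1 with BSA. Csf1, the macrophage growth factor, stood at 406, 407 and 389 CPM with [O] HMGB1 and 165, 159 and 169 CPM with BSA (log2 fold change 1.29 ± 0.04 SE). None of these genes overlapped between groups, as for 26.9% of all genes tested in the higher direction. Ebi3, a subunit of interleukin 27, rose by 3.37 on the log2 scale. Lif rose by 1.34, Il7 by 1.29 and the interleukin 1 antagonist Il1rn by 1.05. The classical early cytokines were nearly silent: Tnf had 1, 2 and 1 counts with [O] HMGB1 and Il1a had 4, 1 and 4, both with 0 in every BSA library, and the interferon Ifnb1 had 0 in all 6 libraries. At this depth 0 counts over the BSA libraries allow up to 3 counts over the group.

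Receptors for cytokines were higher in 15 of 24 tested cases and lower in 3. The receptor chains for interleukin 6 and oncostatin M rose together. Il6st, the signalling chain gp130 shared by the family, stood at 1378, 1367 and 1358 CPM with [O] HMGB1 and 391, 379 and 382 CPM with BSA (log2 fold change 1.83 ± 0.03 SE). Il6r averaged 43.9 ± 1.38 CPM with [O] HMGB1 and 12.4 ± 0.484 CPM with BSA (SD; log2 fold change 1.83 ± 0.07 SE), and Osmr 264 ± 8.90 and 92.05 ± 1.42 CPM in the same order (log2 fold change 1.52 ± 0.04 SE). Il11ra1, the partner chain for interleukin 11, was lower (log2 fold change -0.42), and so was Lifr (-0.24), whose groups overlapped and whose call was lost under 8 of 11 other settings (adjusted p up to 0.222). Both chains of the interferon gamma receptor rose, Ifngr1 by 1.00 on the log2 scale and Ifngr2 to 109.5 ± 5.35 CPM with [O] HMGB1, against 38.9 ± 3.36 CPM with BSA (SD). The type I interferon receptor chain Ifnar1 rose by 0.60 on the log2 scale. Within the kinases and feedback inhibitors behind these receptors, 8 of 17 were higher and 1 lower. Jak2 stood at 449, 445 and 444 CPM with [O] HMGB1 and 55.3, 55.2 and 62.6 CPM with BSA (log2 fold change 2.96 ± 0.05 SE). The feedback inhibitors Cish and Socs3 rose by 3.89 and 1.66, and Ptpn1, a phosphatase that acts on JAK kinases, by 1.73 on the log2 scale. Stat3, which interleukin 6 activates, averaged 428 ± 14.8 CPM with [O] HMGB1 and 231 ± 5.36 CPM with BSA (log2 fold change 0.89 ± 0.04 SE).

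Of the TNF superfamily, the receptors moved and most ligands had too few counts to test. Among 11 receptors tested 7 were higher and 0 lower. Tnfrsf9, a costimulatory receptor best known from T cells, stood at 23.3, 21.7 and 21.4 CPM with [O] HMGB1 and 0.681, 0.142 and 0.342 CPM with BSA (log2 fold change 5.78 ± 0.22 SE). The death receptor Fas stood at 165, 174 and 178 CPM with [O] HMGB1 and 31.2, 29.04 and 30.3 CPM with BSA (log2 fold change 2.51 ± 0.05 SE). Both were separated fully between groups, as were 26.9% of all genes tested in the higher direction. The TNF receptors Tnfrsf1b and Tnfrsf1a rose by 1.47 and 0.48, and Ngfr by 1.10 on the log2 scale. Of 15 ligands measured 3 were tested, and Tnfsf15 was the one called (log2 fold change 2.18 ± 0.17 SE).

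Among adhesion molecules that hold leukocytes, Icam1, Vcam1 and Icam4 rose. Icam1, the ligand of leukocyte beta 2 integrins, stood at 1636, 1601 and 1618 CPM with [O] HMGB1 and 141, 134 and 133 CPM with BSA (log2 fold change 3.57 ± 0.04 SE). Vcam1, the ligand of the integrin VLA-4, stood at 645, 604 and 554 CPM with [O] HMGB1 and 6.53, 6.25 and 7.86 CPM with BSA (log2 fold change 6.46 ± 0.08 SE). Icam4 rose too, with 61, 52 and 46 counts with [O] HMGB1 and 1, 2 and 1 with BSA. The groups did not overlap for any of them, as for 26.9% of all genes tested in the higher direction. The list as a whole had 4 higher and 1 lower of 9 tested, where 23.7% and 20.2% of all genes were. Sele and Selp, the endothelial selectins, were nearly silent, Sele with 0, 1 and 0 counts with [O] HMGB1, Selp with 2, 1 and 2, and both with 0 in every BSA library. The cells' own integrins went both ways, with 5 of 13 higher and 4 lower, where 23.7% and 20.2% of all genes were, and leaving out any of 3 libraries in turn ([O] replicates 1 and 2, BSA replicate 2) left 3 higher. Itga5, which binds fibronectin, rose by 0.80, whereas Itga6 and Itgb4, which pair as a laminin receptor, had log2 fold changes of -0.70 and -0.69.

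Enzymes of nitric oxide, prostaglandin and itaconate synthesis were higher in 11 of 24 tested cases (45.8%) and lower in 6 (25%), where 23.7% and 20.2% of all genes were. Nos2, the inducible nitric oxide synthase, had 496, 484 and 416 counts with [O] HMGB1 and 1, 0 and 2 with BSA, a ratio of 396 (95% counting interval 135 to 1921). Gch1, which makes the cofactor of that enzyme, stood at 13.1, 13.2 and 13.6 CPM with [O] HMGB1 and 3.20, 4.19 and 4.02 CPM with BSA (log2 fold change 1.81 ± 0.14 SE). The arginase Arg1, which uses the same substrate as Nos2, was lower (log2 fold change -0.72 ± 0.18 SE). In the prostaglandin pathway, a phospholipase, the inducible cyclooxygenase and the terminal synthase all rose. Pla2g2a stood at 98.3, 96.4 and 101 CPM with [O] HMGB1 and 11.2, 10.6 and 9.92 CPM with BSA (log2 fold change 3.22 ± 0.09 SE). Ptgs2, the inducible cyclooxygenase, stood at 178, 171 and 167 CPM with [O] HMGB1 and 26.3, 26.5 and 27.95 CPM with BSA (log2 fold change 2.68 ± 0.05 SE). Ptges, which makes prostaglandin E2, rose by 2.78 on the log2 scale. The constitutive cyclooxygenase Ptgs1 and the receptor Ptger1 had log2 fold changes of -0.27 and -0.998. Irg1, the enzyme of itaconate synthesis, averaged 3.98 ± 0.611 CPM with [O] HMGB1 and 0.121 ± 0.0311 CPM with BSA (log2 fold change 4.93 ± 0.39 SE), and the mitochondrial superoxide dismutase Sod2 averaged 954 ± 10.1 and 218 ± 16.1 CPM in the same order (log2 fold change 2.13 ± 0.04 SE).

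The pathway that loads peptides on MHC class I was higher in 22 of 30 tested cases and lower in 0 (2 were lower without BSA replicate 1). The 3 immunoproteasome subunits rose: Psmb8 stood at 13.9, 13.4 and 13.4 CPM with [O] HMGB1 and 2.86, 2.84 and 3.25 CPM with BSA (log2 fold change 2.19 ± 0.13 SE), Psmb9 rose by 1.49 and Psmb10 by 1.46 on the log2 scale. The constitutive subunit that Psmb8 replaces, Psmb5, averaged 79.2 ± 3.59 CPM with [O] HMGB1 and 88.8 ± 7.39 CPM with BSA (log2 fold change -0.16), a call lost without [O] replicate 1 or without BSA replicate 2 or 3 (adjusted p up to 0.187). Over 33 constitutive proteasome genes 3 were higher and 4 lower. The peptide transporter genes Tap1 and Tap2 rose by 1.54 and 1.79. Tapbp, which bridges the transporter to MHC class I, stood at 215, 209 and 204 CPM with [O] HMGB1 and 47.1, 48.8 and 44.3 CPM with BSA (log2 fold change 2.16 ± 0.05 SE), with no overlap. B2m, the invariant light chain, averaged 355 ± 9.25 CPM with [O] HMGB1 and 333 ± 22.3 CPM with BSA and passed no test (log2 fold change 0.09, adjusted p = 0.0866). The heavy chain genes of the rat RT1 complex are near-identical copies, and their individual values, such as 1.96 for RT1-A3, are uncertain. Ciita, the master regulator of MHC class II, had 24, 39 and 41 counts with [O] HMGB1 and 3, 2 and 2 with BSA (log2 fold change 3.60 ± 0.40 SE), while the invariant chain Cd74 had 0, 1 and 0 counts with [O] HMGB1 and 0 in every BSA library.

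Interferon-induced genes split into a raised and a variable set. Of 31 tested 17 were higher and 0 lower, with a median log2 fold change of 1.01. The guanylate-binding proteins, which attack intracellular pathogens, moved most. Gbp2 stood at 1002, 1059 and 1024 CPM with [O] HMGB1 and 33.7, 32.9 and 41.3 CPM with BSA (log2 fold change 4.85 ± 0.08 SE). Gbp5 stood at 308, 325 and 299 CPM with [O] HMGB1 and 1.23, 1.70 and 2.22 CPM with BSA (log2 fold change 7.52 ± 0.09 SE). Gbp4 rose by 4.37, the related GTPase gene Ifi47 by 3.09 and Parp14 by 2.36 on the log2 scale. Of the classical antiviral genes, Ifit2 rose by 1.36, Cmpk2 by 1.82 and Zbp1 by 1.48 on the log2 scale, while Rsad2 and Mx1 missed the threshold. So did Isg15 (log2 fold change 1.12, adjusted p = 0.0525), Ifit3 (1.10), Usp18 (0.61), Mx2 (-0.32), Oas1a (-0.26) and Bst2 (-0.28). Of the 31 list members tested, 14 had no call. Rsad2 stood at 36.2, 39.4 and 20.5 CPM with [O] HMGB1 and 2.86, 2.48 and 19.6 CPM with BSA (adjusted p = 0.0845). Mx1 stood at 4.77, 9.99 and 2.57 CPM with [O] HMGB1 and 1.23, 2.06 and 6.58 CPM with BSA (adjusted p = 0.32). In both genes BSA replicate 3 was the highest of its group and came close to or above the lowest [O] library. Without BSA replicate 3, 22 of the list were called higher. Of the transcription factors behind these genes, 8 of 13 were higher and 1 lower: Irf8 rose by 1.85 and Irf1 by 1.29 on the log2 scale. The lower gene was Stat5b (log2 fold change -0.14). Its call was lost under 9 of 11 other settings, DESeq2 among them (adjusted p up to 0.196).

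Complement and acute phase genes rose in part. Cfb, the protease of the alternative complement pathway, had 154, 160 and 147 counts with [O] HMGB1 and 2, 1 and 0 with BSA (ratio 131, 95% counting interval 44.4 to 636). C3, the central protein of the complement system, had 15, 19 and 27 counts with [O] HMGB1 and 1, 2 and 5 with BSA (log2 fold change 2.65 ± 0.52 SE), and C1s, a protease of the classical pathway, rose by 1.06 on the log2 scale. Over the complement list 6 of 16 tested were higher (37.5%) and 2 lower (12.5%), where 23.7% and 20.2% of all genes were. Lcn2, a neutrophil protein that withholds iron from bacteria, had 286, 263 and 273 counts with [O] HMGB1 and 0, 2 and 0 with BSA. Slc39a14, an importer of zinc and iron, stood at 854, 791 and 793 CPM with [O] HMGB1 and 93.6, 99.5 and 87.02 CPM with BSA (log2 fold change 3.12 ± 0.05 SE). The copper carrier Cp averaged 630.5 ± 11.1 CPM with [O] HMGB1 and 215 ± 11.2 CPM with BSA (log2 fold change 1.55 ± 0.04 SE). With the metalloreductase Steap4 (4.90) and the metal-binding Mt2A (1.41 on the log2 scale), 10 of 13 acute phase and metal-handling genes were higher, and the ferritin light chain Ftl1 was lower (log2 fold change -0.33).

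Among AP-1, EGR and related early factors 15 of 29 were higher and 3 lower. Cebpd, a factor of the acute phase response, stood at 195, 179.8 and 147 CPM with [O] HMGB1 and 11.1, 13.3 and 16.1 CPM with BSA (log2 fold change 3.71 ± 0.14 SE). Cebpb rose by 1.85, Atf3 by 2.14 and Junb by 2.09, while Jun had a log2 fold change of -0.08 (adjusted p = 0.217). Egr2 and Klf2 were lower, by log2 fold changes of -1.10 and -0.96. Of the feedback inhibitors of MAP kinase signalling 4 of 15 were higher (26.7%) and 5 lower (33.3%), where 23.7% and 20.2% of all genes were. Spry1 was at -1.16, Dusp4 at -1.05 and Dusp16 at 1.17 on the log2 scale.

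Genes of cell death and survival were higher in 18 of 28 cases (64.3%) and lower in 6 (21.4%), on both sides of the balance. Over all genes the shares were 23.7% and 20.2%. Ripk2, the kinase of NOD receptors, stood at 296, 300.2 and 294 CPM with [O] HMGB1 and 29.4, 29.8 and 31.5 CPM with BSA (log2 fold change 3.30 ± 0.05 SE). The pro-survival Cflar, which blocks caspase-8, rose by 1.00 and Ier3 by 1.56. The pro-apoptotic Bid rose by 1.36, whereas the pro-apoptotic Bmf was lower (log2 fold change -1.09 ± 0.08 SE). Of 20 growth arrest and DNA damage genes 15 were higher and 1 lower, led by Plk2 (2.21) and Btg2 (1.68 on the log2 scale).

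Scar matrix genes did not follow the inflammatory genes. Of 21 collagens tested 4 were higher and 4 lower, near the background shares of 23.7% and 20.2%, with a median log2 fold change of -0.05. Col1a1, the main chain of type I collagen, stood at 40449, 40958 and 41851 CPM with [O] HMGB1 and 37810.0, 39036 and 39894 CPM with BSA (log2 fold change 0.08 ± 0.03 SE, adjusted p = 0.045), and that call was lost under 6 of 11 other settings (adjusted p up to 0.155). Col3a1, the chain of type III collagen, stood at 18128, 18725 and 19072 CPM with [O] HMGB1 and 21065, 21297 and 22470.0 CPM with BSA (log2 fold change -0.21 ± 0.03 SE). The fold was 1.06 for Col1a1, whose groups did not overlap, and 0.863 for Col3a1. Col1a2, the partner chain of Col1a1, had a log2 fold change of -0.02 (adjusted p = 0.861), and Timp1, the inhibitor of matrix proteases, one of 0.05 (adjusted p = 0.518). The largest change of a collagen was in Col27a1 (log2 fold change 0.79 ± 0.11 SE). Without [O] replicate 3, or with DESeq2, 2 collagens were called higher.

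Single matrix genes moved far, in both directions. Adamts15, a protease of versican and aggrecan, stood at 2.63, 1.97 and 2.64 CPM with [O] HMGB1 and 12.04, 13.5 and 12.3 CPM with BSA (log2 fold change -2.38 ± 0.13 SE). Tnfaip6, which modifies hyaluronan in inflamed tissue, stood at 35.7, 36.1 and 38.7 CPM with [O] HMGB1 and 2.99, 2.84 and 3.85 CPM with BSA (log2 fold change 3.52 ± 0.10 SE). Adam17, the sheddase that frees TNF and growth factors from the membrane, stood at 223, 235 and 235 CPM with [O] HMGB1 and 95.8, 95.8 and 88.4 CPM with BSA (log2 fold change 1.31 ± 0.04 SE). Each of them was separate between groups, as were 26.9% of all genes tested in the higher and 23.9% in the lower direction. Over the metalloproteinases and their inhibitors 6 of 27 were higher (22.2%) and 8 lower (29.6%), where 23.7% and 20.2% of all genes were. Mmp13 was at 1.85 and Adamts1 at -0.69 on the log2 scale. Of 38 matricellular, microfibril and proteoglycan genes 14 were higher and 8 lower, among them the large proteoglycan Vcan (0.64), Emilin1 (0.82), Wisp2 (-1.03) and the profibrotic Ctgf (-0.34). The hyaluronan synthases differed in direction, Has1 at 2.81 and Has2 at -0.41 on the log2 scale. Of 19 crosslinking and hydroxylating enzymes 5 were higher and 5 lower (26.3% each), near the shares over all genes. The transglutaminases Tgm1 and Tgm2 had 2.26 and 1.52 on the log2 scale, and Lox had 0.01 (adjusted p = 0.939).

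Contractile genes of the myofibroblast were higher in 15 of 28 cases and lower in 3, with a median log2 fold change of 0.16. Acta2, the smooth muscle actin that marks activated stellate cells, stood at 1127, 1121 and 1173 CPM with [O] HMGB1 and 642, 656 and 644 CPM with BSA (log2 fold change 0.82 ± 0.03 SE). Myh11, the smooth muscle myosin, stood at 55.00, 63.9 and 56.5 CPM with [O] HMGB1 and 6.67, 7.24 and 8.29 CPM with BSA (log2 fold change 2.99 ± 0.09 SE). Neither overlapped between groups. Synpo2, an actin-bundling protein, rose by 1.20 on the log2 scale, while the filament genes Des and Vim were lower (log2 fold changes -0.39 and -0.17), as was Smtn (-0.44).

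**Figure D4:**
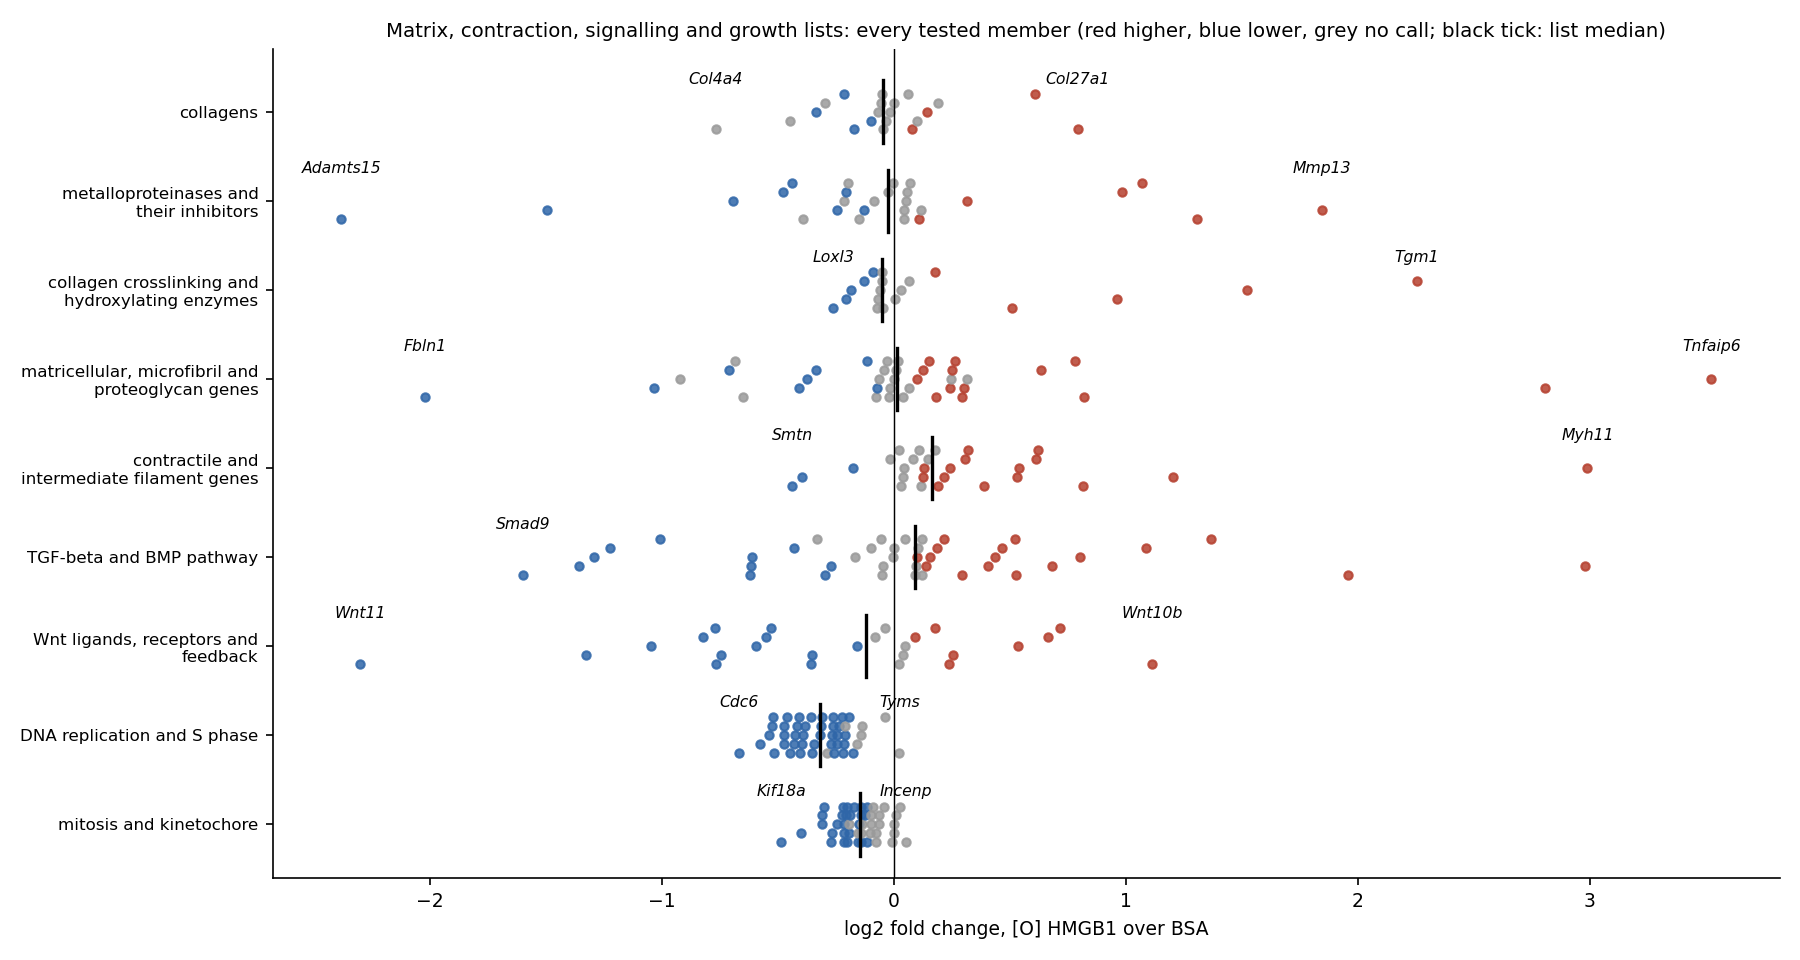
Log2 fold change of [O] HMGB1 over BSA for every tested member of 9 lists, one row a list, with the list median as a black tick and outermost members named, apart from the highest TGF-beta and BMP gene. Red points were called higher, blue lower and grey neither. Collagens gather around 0, single matrix genes reach -2.38 and 3.52, and the DNA replication genes lie to the left of 0 except Tyms (0.02, not called).

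TGF-beta and BMP genes changed in both directions, 17 of 42 higher (40.5%) and 11 lower (26.2%), where 23.7% and 20.2% of all genes did. Of the TGF-beta ligands, Tgfb1 rose by 0.44, whereas Tgfb3 stood at 83.7, 89.7 and 93.7 CPM with [O] HMGB1 and 223, 225 and 205 CPM with BSA (log2 fold change -1.29 ± 0.05 SE). The receptor Tgfbr2 rose by 0.68 on the log2 scale. The BMP branch changed in both directions as well. The ligand Bmp6 rose by 1.37, and the antagonist Fst by 1.09 on the log2 scale. The ligand Bmp4 (-0.61), the inhibitory Smad6 (-1.01), the pseudoreceptor Bambi (-1.22) and Id4 (-1.36) were lower on the log2 scale, while Id3 was higher (0.52) and Id1 passed no test (adjusted p = 0.6). The Smad9 call (log2 fold change -1.60) was lost without [O] replicate 3 or without BSA replicate 1 or 2 (adjusted p up to 0.0735).

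Wnt genes were lower in 13 of 26 cases and higher in 8, against 20.2% and 23.7% of all genes. Axin2 and Nkd2, feedback inhibitors that Wnt signalling induces, stood lower: Nkd2 at 56.1, 59.2 and 55.6 CPM with [O] HMGB1 and 124, 126 and 103 CPM with BSA (log2 fold change -1.05 ± 0.06 SE), and Axin2 with a log2 fold change of -0.59. The R-spondin receptors Lgr4 and Lgr5 were lower (-0.77 and -1.33), as was the ligand Wnt11 (-2.30), while the ligand Wnt10b rose by 1.11 on the log2 scale. In the Notch pathway 5 of 17 were higher and 5 lower. Notch1 rose by 1.41, and Hey1, a target of Notch and BMP signals, stood at 0.612, 0.700 and 0.579 CPM with [O] HMGB1 and 3.81, 4.47 and 5.30 CPM with BSA (log2 fold change -2.81 ± 0.23 SE), with no overlap. Hey2 was lower too (-0.87). Of 21 Hippo pathway genes 10 were higher and 4 lower, the transcriptional regulator Lbh with the largest change, at 89.8, 122 and 113 CPM with [O] HMGB1 and 584, 651 and 579 CPM with BSA (log2 fold change -2.48 ± 0.21 SE).

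Growth factors and receptor tyrosine kinases were called in 45 of 56 cases, 26 higher (46.4%) and 19 lower (33.9%), where 23.7% and 20.2% of all genes were. Pdgfra, a receptor for platelet-derived growth factor, stood at 409, 427 and 410.4 CPM with [O] HMGB1 and 103, 105 and 105 CPM with BSA (log2 fold change 1.99 ± 0.04 SE). Pdgfrb, the receptor form best known on stellate cells, was lower, at 505, 486 and 481 CPM with [O] HMGB1 and 697, 659.7 and 644 CPM with BSA (log2 fold change -0.44 ± 0.04 SE), and the ligand Pdgfa rose by 1.01. Neither receptor overlapped between groups. Angptl4, an inhibitor of lipoprotein lipase, had 130, 116 and 118 counts with [O] HMGB1 and 1, 0 and 0 with BSA. The vascular growth factors Angpt1 and Pgf rose by 3.40 and 3.15, and the EGF family ligands Ereg and Nrg1 by 2.97 and 2.63 on the log2 scale. Vegfa had 0.04 (adjusted p = 0.588). Hgf, the hepatocyte growth factor, rose by 0.87, while its receptor Met stood at 18.8, 17.4 and 17.4 CPM with [O] HMGB1 and 44.7, 41.9 and 45.1 CPM with BSA (log2 fold change -1.29 ± 0.08 SE). The fibroblast growth factors Fgf18 and Fgf9 were lower, Fgf18 with 0, 1 and 2 counts with [O] HMGB1 and 12, 20 and 11 with BSA. Fgf9 had 3, 0 and 3 counts with [O] HMGB1 and 16, 15 and 5 with BSA. Kitlg, the stem cell factor, stood at 275, 281 and 292 CPM with [O] HMGB1 and 535, 515 and 585 CPM with BSA (log2 fold change -0.95 ± 0.04 SE).

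Genes of clotting changed on both sides of the cascade. F3, the tissue factor that starts coagulation, stood at 144, 149.7 and 153 CPM with [O] HMGB1 and 53.2, 53.7 and 59.7 CPM with BSA (log2 fold change 1.43 ± 0.05 SE). Thbd, the thrombin-binding anticoagulant thrombomodulin, had 1, 1 and 1 counts with [O] HMGB1 and 13, 6 and 7 with BSA (BSA over [O] ratio 10.2, 95% counting interval 3.12 to 52.6). The protease inhibitor Serpine2 rose by 1.40 on the log2 scale, and the plasminogen activator gene Plat had 0.15 (adjusted p = 0.22). Over that list 6 of 16 were higher (37.5%) and 4 lower (25%), where 23.7% and 20.2% of all genes were.

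Most genes of DNA replication fell, by small amounts. Of 46 DNA replication genes 39 were lower and 0 higher, with a median log2 fold change of -0.32. Cdc6, which loads the replicative helicase, stood at 7.59, 8.33 and 10.04 CPM with [O] HMGB1 and 12.7, 13.5 and 15.2 CPM with BSA (log2 fold change -0.67 ± 0.11 SE). Gins2 (-0.54), Mcm2 (-0.43) and E2f1 (-0.45 on the log2 scale) were lower as well. Of 46 mitosis genes 27 were lower and 0 higher, with a median of -0.15, but 17 were lower without [O] replicate 1 and 14 without BSA replicate 3. Mki67 averaged 328 ± 0.477 CPM with [O] HMGB1 and 328 ± 13.5 CPM with BSA (adjusted p = 0.997). Of 20 cyclins, their kinases and inhibitors 6 were higher and 12 lower, with Ccnd1 at -0.30, Cdkn2c at -0.75, Cdk6 at 0.86 and Cdkn1a at 0.42 on the log2 scale.

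Genes of sterol and fatty acid synthesis were more often lower than higher, with every fall called under 2-fold. The oxysterol enzymes Cyp7b1 and Ch25h rose by more than 2-fold, and Cyp27a1 by less (log2 fold change 0.80). Of 38 cholesterol genes 18 were lower and 8 higher (11 lower without BSA replicate 3), and of 15 lipogenesis genes 10 were lower and 1 higher. The largest falls of the lipogenesis list were those of Dgat2, which completes triglyceride synthesis, Lpin1 and the elongase gene Elovl6 (log2 fold changes -0.71, -0.71 and -0.55). Fads1 had a log2 fold change of -0.39, Fasn -0.23, Hmgcs1 -0.22 and Insig1 -0.37. Cyp7b1, the oxysterol hydroxylase, stood at 69.9, 67.2 and 69.3 CPM with [O] HMGB1 and 2.18, 2.63 and 2.91 CPM with BSA (log2 fold change 4.75 ± 0.11 SE). Ch25h, which makes its substrate and with it a guidance signal for lymphocytes, had 22, 33 and 17 counts with [O] HMGB1 and 1, 0 and 2 with BSA. Of 13 genes of quiescent stellate cells and retinoid metabolism 2 were higher and 5 lower. The 9 markers of retinoid-storing stellate cells, of which 5 were tested, summed to 41.6 to 45.8 CPM with [O] HMGB1 and 26.7 to 29.5 CPM with BSA, and their part in these values was not tested. Dhrs3, which reduces retinal to retinol, stood at 4.16, 4.13 and 4.82 CPM with [O] HMGB1 and 16.1, 15.6 and 15.1 CPM with BSA (log2 fold change -1.84 ± 0.10 SE).

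Some of the largest changes lay outside the lists. Fgr, a SRC family kinase known from myeloid cells, had 152, 168 and 156 counts with [O] HMGB1 and 2, 1 and 0 with BSA. St6galnac1, which adds sialic acid to mucin-type glycans, stood at 31.9, 26.7 and 27.8 CPM with [O] HMGB1 and 0.817, 0.781 and 0.598 CPM with BSA (log2 fold change 5.26 ± 0.15 SE). Cd69, a lymphocyte activation marker singled out after its values were seen, had 18, 36 and 37 counts with [O] HMGB1 and 0 with BSA, at least 25.8-fold higher against a floor of 3 counts over the BSA group. The falls were shallower than the rises. Rem1, a small GTPase that restrains calcium channels, stood at 16.6, 19.6 and 16.9 CPM with [O] HMGB1 and 86.9, 92.6 and 85.1 CPM with BSA (log2 fold change -2.32 ± 0.16 SE). Cmklr1, the receptor of chemerin, stood at 22.02, 20.7 and 20.6 CPM with [O] HMGB1 and 78.2, 74.8 and 71.8 CPM with BSA (log2 fold change -1.83 ± 0.06 SE). Il20rb (-1.67), Sdpr (-1.71), Gpr37 (-1.84) and the homeobox gene Hoxa2 (-1.73 on the log2 scale) were lower too.

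To see where [O] HMGB1 differed from the other forms, its libraries were tested directly against those with [H] and [SO3] HMGB1. These tests share the same 3 [O] libraries with the comparison above and are not independent of it. Against [H] HMGB1, 4139 genes were called (40.8%), 2216 higher (21.9%) and 1923 lower (19.0%) with [O]. At 2-fold or more, 343 were higher (3.38%) and 160 lower (1.58%). Against [SO3] HMGB1, 6000 were called (59.2%), 3047 higher (30.0%) and 2953 lower (29.1%). At 2-fold or more, 401 were higher (3.95%) and 272 lower (2.68%). A gene was higher with [O] HMGB1 than with BSA, [H] and [SO3] at once in 1031 cases (10.2%) and lower in 552 (5.44%).

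The 10 genes that stood furthest above all 3 other groups were Lcn2, Cxcl6, Vcam1, Ccl20, Cx3cl1, Fgr, Nos2, Cfb, Tlr2 and Angptl4. Vcam1 had 645, 604 and 554 CPM with [O] HMGB1, 6.93, 6.44 and 6.39 CPM with [H], 5.13, 5.59 and 4.36 CPM with [SO3] and 6.53, 6.25 and 7.86 CPM with BSA (log2 fold change 6.51 against [H] and 6.90 against [SO3]). Cxcl6 had 123, 127 and 129 CPM with [O] HMGB1, 0.254, 0.310 and 0.248 CPM with [H], 0.433, 0.742 and 0.523 CPM with [SO3] and 0.340, 0.355 and 0.256 CPM with BSA. In both genes the other 3 groups lay within a narrow low range and no library of theirs approached an [O] library. All 12 raised chemokines were also higher with [O] than with [H] and than with [SO3] HMGB1. The MHC class I list was higher than [H] in 23 and than [SO3] in 26 of its 30 tested members, with 0 lower in either. Tlr2 had 208, 225 and 202 counts with [O] HMGB1, 1, 1 and 3 with [H] and 1, 3 and 8 with [SO3].

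Not all inflammatory genes stood highest with [O] HMGB1. Il6 stood at 50.8, 48.6 and 51.01 CPM with [O] HMGB1, 2.67, 3.41 and 2.91 CPM with [H] and 76.4, 72.8 and 68.03 CPM with [SO3] (log2 fold change 4.06 against [H] and -0.53 against [SO3], adjusted p = 5.68e-09 for the second). The [O] libraries thus lay above [H] and below [SO3]. Of 15 interleukins and colony-stimulating factors 6 were higher and 4 lower with [O] than with [SO3] HMGB1, where 30.0% and 29.1% of all genes were. Cytokine receptors were higher with [O] in 15 of 24 cases and lower in 4, and NF-kB regulators higher in 11 of 21 and lower in 8. Interferon-induced genes were higher in 19 of 31 cases and lower in 1. Of 20 growth arrest and DNA damage genes 1 was higher than with [SO3] and 16 lower. Of 29 early transcription factors 5 were higher and 21 lower than with [SO3], and of 32 antioxidant genes 1 was higher and 23 lower. In the matrix lists the direction was the reverse: 17 of 21 collagens were higher with [O] than with [SO3] HMGB1 and 2 lower, while against [H] 3 were higher and 4 lower. DNA replication genes were lower with [O] than with [H] HMGB1 in 41 of 46 cases and higher in 0, and against [SO3] 17 were higher and 9 lower.

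The 10 genes furthest below all 3 other groups were Adamts15, Rem1, Arhgef28, Sesn3, Ephb3, Camkk1, Amacr, Rassf2, Dusp4 and Kitlg. Kitlg stood at 275, 281 and 292 CPM with [O] HMGB1, 551, 544 and 536 CPM with [H], 562, 555 and 561 CPM with [SO3] and 535, 515 and 585 CPM with BSA (log2 fold change -0.94 against [H] and -0.98 against [SO3]). Ephb3, a receptor for ephrins, stood at 44.4, 44.1 and 46.6 CPM with [O] HMGB1, 133, 146 and 137 CPM with [H], 98.2, 100.2 and 117 CPM with [SO3] and 129.5, 127 and 109.8 CPM with BSA (log2 fold change -1.62 against [H] and -1.22 against [SO3]). In both genes every [O] library was below all 9 other libraries. Sesn3, a stress-induced regulator of growth signalling, had log2 fold changes of -1.45 against BSA, -1.45 against [H] and -1.31 against [SO3].

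**Figure D5:**
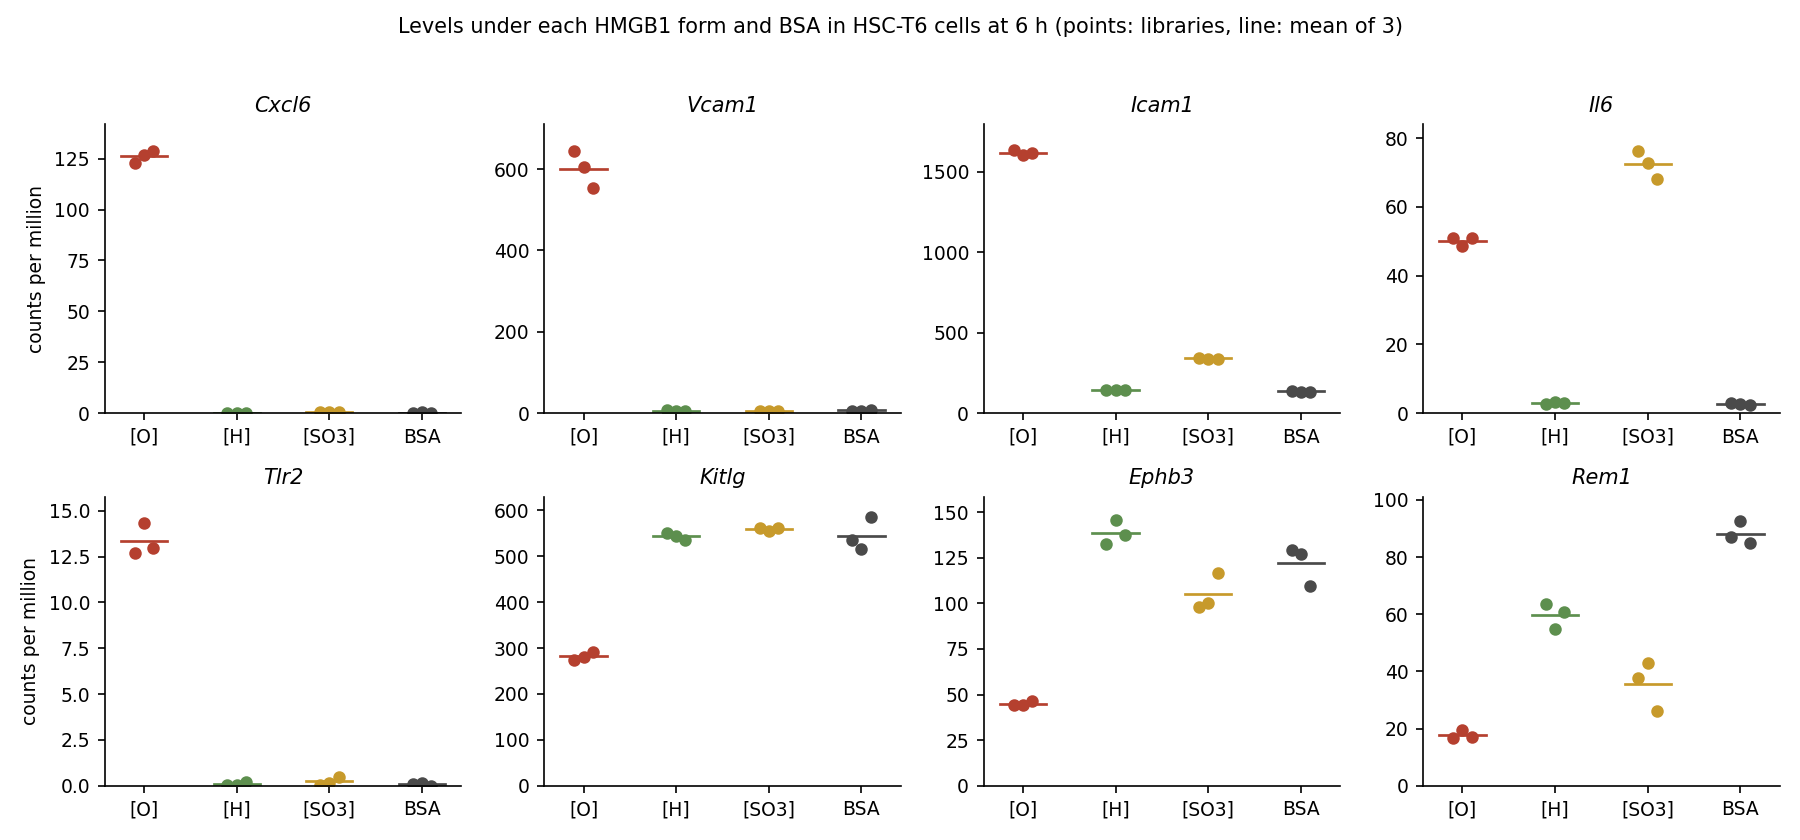
CPM of 8 genes in the 12 HSC-T6 libraries, with [O], [H], [SO3] and BSA from left to right, points for libraries and lines for group means, on linear axes that start at 0. Cxcl6, Vcam1 and Tlr2 are high with [O] HMGB1 alone among the 4 groups, Il6 is higher with [SO3], and Kitlg and Ephb3 are lower with [O] than in any other library.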

How the data were processed

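Per the labels' protocols, a miRNeasy kit gave the RNA and a TruSeq Stranded mRNA kit the libraries. The values are raw counts per gene, deposited by the authors without normalization; the sources used here do not give the aligner, the counter, its strand setting or the annotation. The genome build mm10, a mouse build, is named in the submitters' processing notes for all libraries, and the table of rat cells uses rat gene names. The rows no_feature and ambiguous were left out; reads without a gene made 24.2% to 25.7% of all reads counted in the libraries compared. Depth was 16121202 to 16883214 counts on genes in the [O] libraries and 11752661 to 14557156 in the BSA libraries.

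From these counts, edgeR 4.0.16 (R 4.3.3) was run on all 12 HSC-T6 libraries with TMM scaling, a filter of 10 counts in enough libraries and 15 in all, robust quasi-likelihood fits with 8 residual degrees of freedom and Benjamini-Hochberg adjustment over the 10140 genes tested, at an adjusted p under 0.05. The standard error is the log2 fold change divided by the root of its F value. Libraries of the other tables were not used. Where BSA or [O] libraries held 1 to 3 counts together, the ratio of summed counts is given with an exact Clopper-Pearson interval at 95%, which covers counting error only. On simulated data of 9980 genes for [O] HMGB1 against BSA, 50 genes were changed at each fold tried and 9780 were left unchanged. The test recovered 86% of genes changed 1.5-fold, 100% of those changed 2-fold upwards and 98% of those halved. It called 0.0818% of unchanged genes. Far fewer genes changed there than the 43.9% called in the real data, so this rate does not carry over to those calls.

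The genes compared and the 49 gene lists were chosen with earlier results of these data known. Genes were named by rule: the 15 largest rises and falls among genes of at least 5 CPM whose groups do not overlap, the 10 largest gains and losses in CPM, the 10 genes furthest above and below all other groups, the 4 called members of each list with the largest change, members that complete a pair or complex, and Hmgb1 with its receptors. Further list members in the text were chosen after their values were seen, and some genes that the rule takes are not reported here. The 11 alternatives were DESeq2 (1.42.0), its size factors in edgeR, no filter, a fit of the compared libraries alone, a replicate block and each replicate left out. No promoter or other sequence was analysed, because no rat sequence was used here.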

Additional observations from a re-analysis of the deposited data

How the results depend on the processing

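Genes called for [O] HMGB1 against BSA numbered 4453, against 4435 with DESeq2's size factors in edgeR, 4398 without the filter, 3880 with the DESeq2 test and 4333 in a fit of both groups alone, and 3781 to 4262 with 1 replicate left out. Of the 4453 calls, 82.1% to 99.4% were kept. Deviations of same-numbered [O] and BSA libraries from their group means had correlations of 0.072, -0.028 and 0.007. These are taken over all genes and cannot decide whether same-numbered libraries were handled together, which the sources do not say. A replicate block gave 4230 calls, 2306 higher and 1924 lower, 3944 calls against [H] HMGB1 and 5850 against [SO3] HMGB1. Leaving out 1 replicate gave 3551 to 3770 calls against [H] and 5503 to 6017 against [SO3]. Of 217 called genes that the naming rule takes, 210 stayed called with the same direction under every alternative that tested them, and 0 reversed. Some, such as Thbd and Fbln1, were tested under 10 of the 11. The other 7 were Col1a1, Psmb5 and Smad9, described above, with Itgb3, Col15a1, Psmb4 and Cenpk. Constitutive proteasome genes lower numbered 0 to 7 with 1 replicate left out, and interferon-induced genes higher 16 to 22. The design holds 3 libraries a group from 1 cell line at 1 time, and genes with few counts have wide errors.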

Other observations

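Clock genes were higher with [O] HMGB1 in 7 of 15 cases and lower in 4. Dbp, an output gene of the clock, stood at 10.8, 12.8 and 12.2 CPM with [O] HMGB1 and 21.98, 24.6 and 23.1 CPM with BSA (log2 fold change -0.96 ± 0.08 SE). Nfil3, which binds the same promoter elements as a repressor, stood at 47.8, 51.3 and 51.1 CPM with [O] HMGB1 and 25.5, 29.96 and 26.8 CPM with BSA (log2 fold change 0.87 ± 0.07 SE), and Arntl, the clock activator BMAL1, rose by 0.61 on the log2 scale. The groups were apart for Dbp and Nfil3, in opposite directions.

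Glycolysis and hypoxia genes were higher in 8 of 27 cases and lower in 8. Hk2, the inducible hexokinase, stood at 70.6, 62.3 and 63.6 CPM with [O] HMGB1 and 26.9, 22.2 and 25.4 CPM with BSA (log2 fold change 1.40 ± 0.07 SE). Hif1a rose by 0.93 and Egln3, a hydroxylase that marks it for degradation, by 2.17 on the log2 scale. Antioxidant genes were lower in 10 of 32 cases and higher in 6. Of 31 genes of the unfolded protein and integrated stress response 11 were higher and 6 lower, with 3 lower without [O] replicate 1. Heat shock chaperones were higher in 6 of 17 cases and lower in 4, and ion transport genes higher in 3 of 13 and lower in 6. Over all genes tested, 23.7% were higher and 20.2% lower.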
